A study of Mus musculus with 12 samples.

Results

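The genes described here are 44 mouse genes whose products work in the nucleolus or assemble ribosomes, together with Odc1, the rate-limiting enzyme of polyamine synthesis, which is counted among the 44 as a known MYC target. They were chosen by name and role, with no measured value in that choice, but with earlier results of these data known. Their counts therefore describe the list and are no independent test of it. On arrays of 45281 probes (Illumina MouseWG-6 v2.0), 77 probes carry the symbol of 43 of these genes, and no probe is named for Fbl, the methyltransferase of the box C/D particles. A probe counted as measured where its detection p-value was under 0.05 on at least 3 of the 12 arrays. That left 60 probes for 38 genes, out of 10497 genes measured in all. The 5 genes lost at this step were Dkc1, Utp20, Bysl, Wdr12 and Nop16, none of them detected on more than 2 arrays. All counts below are over the 38 measured genes, not over all 44.

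The RNA came from sorted thymocytes with neither CD4 nor CD8 on their surface (CD4-CD8-, double-negative or DN), an early stage of T-cell development, taken from C57 BL/6 mice aged 2 to 3 months, with 300 ng per array. Of the arrays, 3 were from mice that carry the NHD13 transgene and lack Lyl1, a helix-loop-helix DNA-binding factor active in blood progenitors, 3 from NHD13 mice with Lyl1 intact, and 6 from wild-type mice. NHD13 is a fusion protein that joins NUP98, of the nuclear pore, to HOXD13, a homeobox factor, and is known from human leukaemia. Which promoter drives it is not stated in these sources. Both transgenic groups share the fusion, and Lyl1 loss was not studied in mice free of it. No label says whether replicate arrays stand for different mice, so the p-values reflect the spread among these samples alone, which may be technical.

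Ribosome production starts in the nucleolus, where RNA polymerase I copies the ribosomal RNA (rRNA) genes. Small nucleolar RNA-protein particles (snoRNPs) then mark the transcript at chosen bases: box C/D particles add methyl groups and box H/ACA particles turn uridine into pseudouridine. Assembly factors cut and fold the transcript and load ribosomal proteins, in separate lines for the small and the large subunit. MYC is a known activator of many of these genes, and growing DN thymocytes are known for a burst of division that needs new ribosomes.

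The probe for Lyl1 followed the labels, with log2 signals of 4.75, 4.73 and 4.68 on the Lyl1-knockout arrays, 11.18, 11.19 and 11.10 on the NHD13 arrays and 6.79 to 7.39 on the wild-type arrays. All signals here are on the log2 scale after background correction and quantile normalization. Lyl1-knockout replicate 1 stood apart: its T-cell receptor gene Cd3e was at 9.58, against 13.15 and 13.09 on replicates 2 and 3, and its 13 measured myeloid markers averaged 4.3 above the wild-type mean. NHD13 replicate 2 had the same markers at 2.39 above that mean. By the pattern of their 19512 undetected probes the arrays fell into 2 classes, one with all Lyl1-knockout arrays and wild-type replicates 1 to 3, the other with all NHD13 arrays and wild-type replicates 4 to 6. Within wild type the same split separates arrays with low signals of Xist, the RNA of the inactive X chromosome (4.57 to 4.83), from those with high ones (11.54 to 12.21). All 3 NHD13 arrays had high Xist (10.83, 10.96 and 12.71), like the wild-type arrays of their class. The Lyl1-knockout arrays were at 10.93, 11.89 and 4.63, so replicates 1 and 2 departed from the low signals of the wild-type arrays in their class. Arrays with high and low Xist were thus unevenly spread over the groups compared below.

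The promoters of 6 members are shown because their values carry the comparisons that follow: Ncl, Nop58 and Odc1 passed against wild type, and Nop58, Nhp2 and Odc1 against NHD13, under all the processing alternatives tried. Mybbp1a and Tsr1, with Imp4, are the members that passed in both of these comparisons on their brightest probe and hold an E-box. Each window runs from 250 bases before to 50 bases after the annotated start, is read 5′ to 3′ on the gene's strand, and comes from RefSeq on build GRCm38.p6. Capitals mark the E-box CACGTG bound by MYC and other helix-loop-helix proteins, the GC box GGGCGG and the ETS core CCGGAAGT, each searched on both strands, so that CCGCCC is a GC box read from the other strand.
Ncl, chr1:86359406-86359705, minus strand: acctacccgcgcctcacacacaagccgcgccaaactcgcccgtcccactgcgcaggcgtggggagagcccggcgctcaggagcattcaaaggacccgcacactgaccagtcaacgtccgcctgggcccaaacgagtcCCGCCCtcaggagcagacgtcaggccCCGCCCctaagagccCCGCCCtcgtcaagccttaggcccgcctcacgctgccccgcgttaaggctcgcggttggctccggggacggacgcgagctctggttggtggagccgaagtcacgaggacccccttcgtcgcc
Nop58, chr1:59684756-59685055, plus strand: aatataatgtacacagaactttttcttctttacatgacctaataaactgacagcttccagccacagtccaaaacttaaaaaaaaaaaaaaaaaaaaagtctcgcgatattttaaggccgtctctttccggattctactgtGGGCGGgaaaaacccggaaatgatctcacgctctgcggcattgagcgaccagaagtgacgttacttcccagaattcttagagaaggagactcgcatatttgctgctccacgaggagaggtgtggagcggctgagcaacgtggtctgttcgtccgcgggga
Nhp2, chr11:51619523-51619822, plus strand: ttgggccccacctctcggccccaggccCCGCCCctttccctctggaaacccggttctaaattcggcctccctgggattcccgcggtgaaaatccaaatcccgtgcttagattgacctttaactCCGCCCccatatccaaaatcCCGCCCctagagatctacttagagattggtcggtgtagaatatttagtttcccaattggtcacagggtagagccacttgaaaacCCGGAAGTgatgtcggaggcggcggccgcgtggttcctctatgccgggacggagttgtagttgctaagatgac
Odc1, chr12:17544623-17544922, plus strand: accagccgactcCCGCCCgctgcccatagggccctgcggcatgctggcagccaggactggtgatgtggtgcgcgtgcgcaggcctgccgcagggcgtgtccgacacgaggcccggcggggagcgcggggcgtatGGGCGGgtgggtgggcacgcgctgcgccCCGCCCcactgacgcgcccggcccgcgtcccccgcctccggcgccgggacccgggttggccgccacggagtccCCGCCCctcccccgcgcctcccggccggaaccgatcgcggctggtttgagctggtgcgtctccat
Mybbp1a, chr11:72441077-72441376, plus strand: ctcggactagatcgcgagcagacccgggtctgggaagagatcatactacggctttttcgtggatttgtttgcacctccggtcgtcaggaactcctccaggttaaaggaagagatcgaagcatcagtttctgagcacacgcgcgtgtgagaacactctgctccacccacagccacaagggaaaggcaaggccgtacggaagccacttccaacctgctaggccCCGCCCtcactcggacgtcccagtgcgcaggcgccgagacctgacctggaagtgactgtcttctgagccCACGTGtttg
Tsr1, chr11:74897830-74898129, plus strand: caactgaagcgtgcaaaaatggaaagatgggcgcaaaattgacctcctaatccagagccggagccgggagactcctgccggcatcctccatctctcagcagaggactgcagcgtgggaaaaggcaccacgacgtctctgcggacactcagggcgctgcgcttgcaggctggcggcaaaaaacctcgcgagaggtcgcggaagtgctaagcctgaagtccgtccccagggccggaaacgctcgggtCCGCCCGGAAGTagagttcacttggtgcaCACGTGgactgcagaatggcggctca
Of the 38 measured genes, 34 had such a window, and Bop1, Npm1, Rrp12 and Rrs1 were left without one. The E-box was found in 8 of the 34, which is 23.5%, against 11.7% of the 8557 measured genes with a window and 8.09% of all 27025 genes with one. Those 8 are Imp4, Ltv1, Mybbp1a, Nle1, Nop2, Pes1, Tsr1 and Wdr43, and in 6 of them it lies within the first 50 bases after the start (for Mybbp1a from base 41, for Tsr1 from base 25). The GC box was in 24 of 34 (70.6%, against 67.4% of the measured genes), and the ETS core in 10 of 34 (29.4%, against 9.27%). In Tsr1 the GC box and the ETS core overlap. The palindrome made of TCTCG followed at once by its reverse complement CGAGA was in 0 of the 34 windows and in 1.22% of those of measured genes. Windows of Ncl, Nop58, Nhp2 and Odc1 hold no CACGTG, and a match or its absence in these 300 bases is a description of the sequence only.

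In NHD13 thymocytes the ribosome assembly genes stood below wild type as a body. Of the 38, 26 fell and 0 rose at an adjusted p under 0.05 (limma's moderated test, Benjamini-Hochberg adjustment over all 20416 probes kept), where 12.6% of all genes fell and 11.6% rose. All 38 differences were negative, from -1.33 for Odc1 to -0.27 for Ppan, with a median of -0.63, while the median over all genes was -0.00. For 28 of the 38, each NHD13 array lay below each wild-type array (15.2% of all genes did so), and for 0 of 38 above (14.8%). At an unadjusted p under 0.05 the counts were 31 lower and 0 higher. In RNA from whole sorted populations, fewer cells that express a gene and less of its RNA per cell cannot be told apart.

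**Figure D1:**
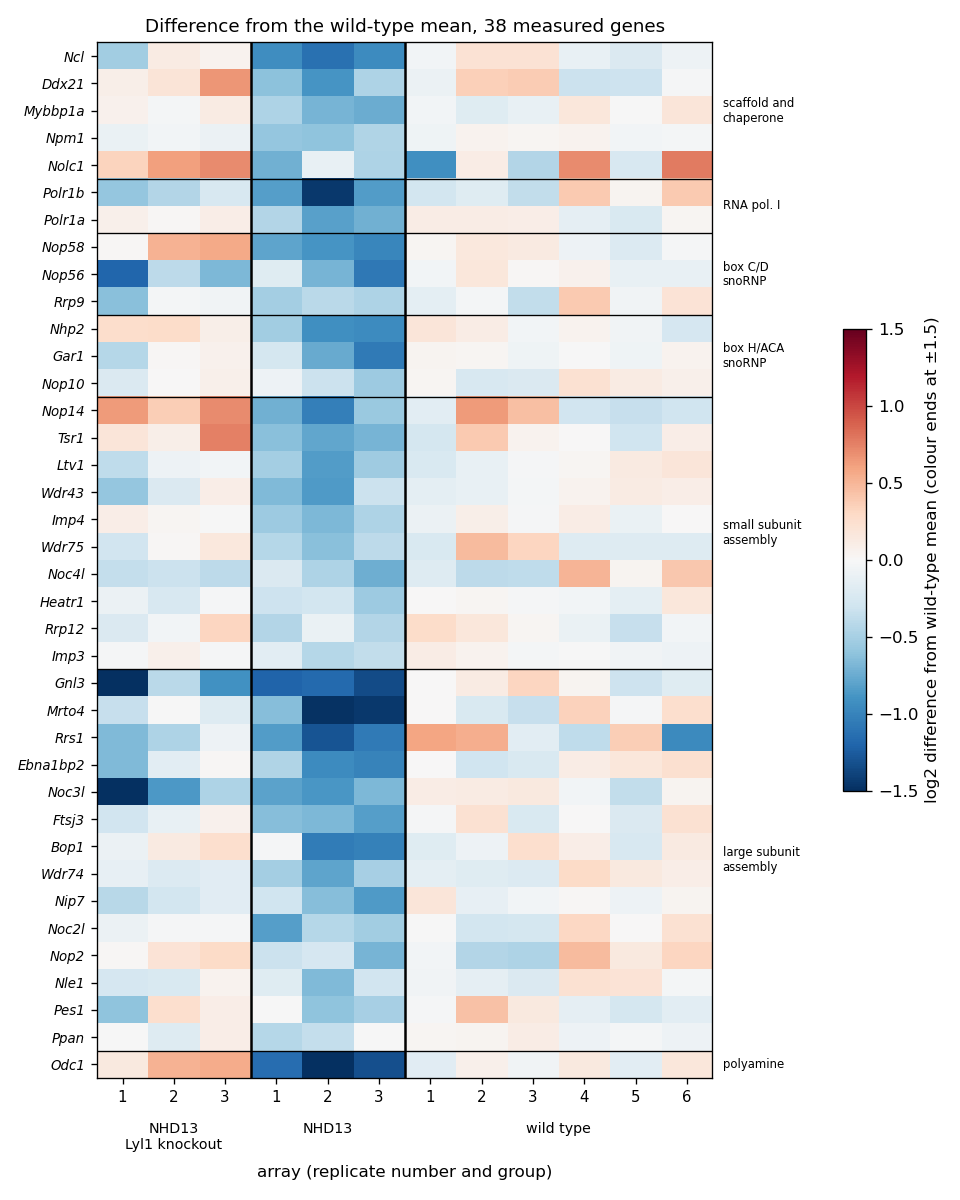
Each row is 1 of the 38 measured genes and each column an array; colour gives the log2 difference from the gene's wild-type mean, blue lower and red higher, with roles separated by lines. The NHD13 columns are blue for nearly all rows, while among the Lyl1-knockout columns the blue cells gather in Gnl3, Noc3l and Nop56 and in replicate 1.

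Among the scaffold and chaperone proteins of the nucleolus, 4 of 5 fell. Ncl encodes nucleolin, an abundant RNA-binding protein of the nucleolus that binds nascent rRNA. It was at 10.72, 11.37 and 11.30 on the Lyl1-knockout arrays, at 10.31, 10.12 and 10.30 on the NHD13 arrays, and at 11.03 (lowest), 11.18 (median) and 11.46 (highest) on the wild-type arrays. The NHD13 arrays lay below all others, and in NHD13 the signal fell by 1.00 ± 0.18 against wild type (SE, adjusted p = 0.00268), 1.99-fold. A further Ncl probe gave -1.23 (adjusted p = 0.00109). Npm1, the histone chaperone nucleophosmin, was at 13.92, 13.97 and 13.93 in Lyl1-knockout, 13.43, 13.42 and 13.56 in NHD13, and 13.96, 14.02 and 14.07 (lowest, median, highest) in wild type. Its shift in NHD13 was small but again without overlap (-0.55 ± 0.12, adjusted p = 0.00712). Ddx21, an RNA helicase of rRNA synthesis and processing, fell by 0.65 ± 0.21 (adjusted p = 0.0455) on its brightest probe, and a dimmer probe did not pass (-0.52, adjusted p = 0.419). Mybbp1a, which takes part in rRNA synthesis and processing, fell by 0.63 ± 0.14 (adjusted p = 0.00833) on its brightest probe. Its other kept probes gave -0.83 (adjusted p = 0.0449), -0.55 (adjusted p = 0.277) and 0.08 (adjusted p = 0.954). Nolc1, a chaperone of snoRNPs, was the exception, at 5.59, 6.21 and 5.85 in NHD13 against 5.40, 6.26 and 7.10 (lowest, median, highest) in wild type. These groups overlapped and the difference of -0.44 ± 0.34 did not pass (adjusted p = 0.401).

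Both listed subunits of RNA polymerase I fell, while of 15 other measured subunits and factors of this enzyme 1 did, beside 12.6% of all genes. Polr1a, its largest subunit, was at 10.74, 10.37 and 10.47 in NHD13 against 10.96, 11.25 and 11.30 (lowest, median, highest) in wild type, a change of -0.66 ± 0.14 (adjusted p = 0.00752). Polr1b, the partner subunit at the catalytic centre, fell by 1.04 ± 0.22 (adjusted p = 0.00698), that is 2.06-fold. For Polr1a, 2 of its 3 other probes passed in the same direction (-0.63 and -0.97) and 1 did not (-0.17, adjusted p = 0.603).

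Of the box C/D proteins, Nop58 and Nop56, the paired core proteins that hold the methyltransferase to its guide RNA, both fell. Nop58 was at 11.45, 11.36 and 11.27 in NHD13, against 12.03, 12.25 and 12.40 (lowest, median, highest) in wild type, and changed by -0.89 ± 0.16 (adjusted p = 0.00283). Nop56 was at 11.25, 10.75 and 10.36 in NHD13, against 11.33, 11.43 and 11.62 in wild type. The spread of Nop56 within NHD13 was wide, and its change of -0.65 ± 0.21 only just passed (adjusted p = 0.0473). Rrp9, specific to the U3 particle of small-subunit processing, was at 9.51, 9.62 and 9.55 against 9.65, 9.98 and 10.41 and did not pass (-0.46 ± 0.19, adjusted p = 0.115). Among the box H/ACA proteins, Nhp2 was at 11.80, 11.40 and 11.37 in NHD13 against 12.06, 12.32 and 12.50 in wild type (-0.79 ± 0.15, adjusted p = 0.00423), with all NHD13 arrays lower. The dimmer probe of Nhp2 did not pass (-0.61, adjusted p = 0.0677). Gar1 fell by 0.69 ± 0.18 (adjusted p = 0.0185) on its brightest probe. Its dimmer kept probe was at 0.0006 (adjusted p = 0.9997), and the call of Gar1 was lost with the mean of all kept probes. Nop10, the smallest protein of that particle, was at 13.16, 12.91 and 12.68 against 12.99, 13.28 and 13.46, with overlap and no call (-0.32 ± 0.16, adjusted p = 0.192).

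**Figure D2:**
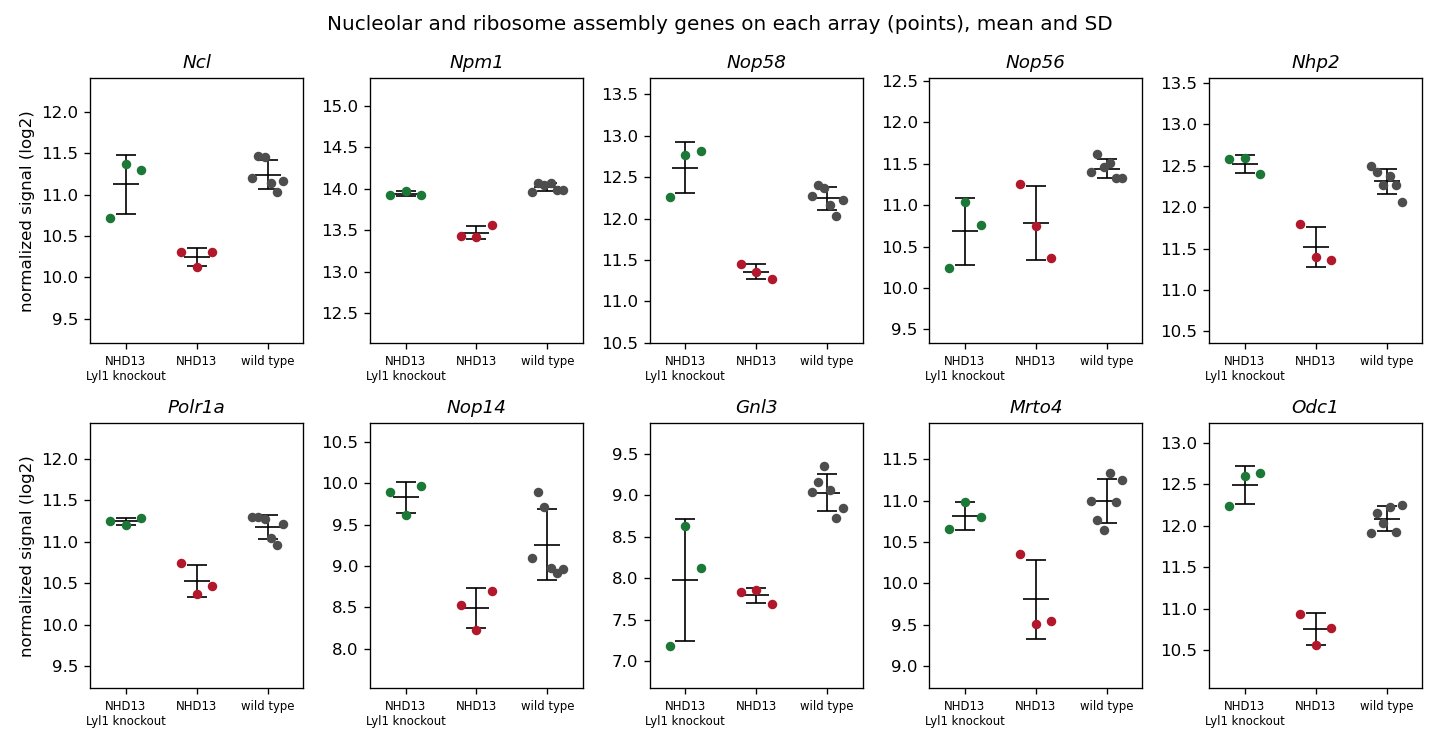
Normalized log2 signal of 10 genes on every array (points), with the group mean (bar) and SD (whiskers) for Lyl1-knockout NHD13, NHD13 and wild type; all panels span the same number of log2 units. For Ncl, Npm1, Nop58, Nhp2, Polr1a and Odc1 the NHD13 points lie below all others, while for Gnl3 and Nop56 the Lyl1-knockout points also lie below wild type.

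Of 10 small-subunit assembly factors, 5 fell: Nop14, Tsr1, Ltv1, Wdr43 and Imp4, with changes of -0.77 to -0.56. Nop14, a core part of the complex that processes the small-subunit transcript, was at 8.53, 8.23 and 8.70 in NHD13, against 8.91, 9.03 and 9.90 (lowest, median, highest) in wild type (-0.77 ± 0.24, adjusted p = 0.0413). Tsr1, which resembles a GTPase and acts late on the pre-small subunit in yeast, fell by 0.70 ± 0.19 (adjusted p = 0.0233). The dimmer probe of Tsr1 did not pass (-0.43, adjusted p = 0.276). Imp4, a protein bound to U3 RNA, fell by 0.56 ± 0.12 (adjusted p = 0.00825), and its dimmer probe did not pass (-0.37, adjusted p = 0.0924). Imp3, which works in the same complex as Imp4, had the smallest difference of the class. Imp3 was at 12.34, 12.08 and 12.14 in NHD13 and at 12.43, 12.49 and 12.61 in wild type, without overlap but short of the threshold (-0.32 ± 0.12, adjusted p = 0.0927). Heatr1, Wdr75, Rrp12 and Noc4l had values of -0.48 to -0.33 that did not pass. The probes of Noc4l disagreed: its other kept probe, almost as bright, passed at -0.91 (adjusted p = 0.00537) in this comparison and at 0.67 (adjusted p = 0.0412) in Lyl1-knockout against NHD13.

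The large-subunit factors held the most calls, 10 of 14. Gnl3, or nucleostemin, a GTP-binding nucleolar protein abundant in stem and dividing cells, was at 7.83, 7.86 and 7.69 in NHD13, against 8.72, 9.05 and 9.35 (lowest, median, highest) in wild type. The NHD13 arrays were close to each other and far from wild type (-1.24 ± 0.26, adjusted p = 0.00670, 2.36-fold lower). Mrto4, whose yeast counterpart holds the place of a stalk protein on the pre-large subunit, was at 10.36, 9.51 and 9.55 in NHD13 against 10.65, 10.99 and 11.34 in wild type (-1.19 ± 0.22, adjusted p = 0.00358). Rrs1, a yeast factor for loading of the smallest rRNA, was detected on 0 of 3 NHD13 arrays and 5 of 6 wild-type arrays, so its signal was at least 1.76-fold lower in NHD13 (adjusted p = 0.0343). This bound takes the NHD13 level as that of the faintest detected probes. Rrs1 met the detection filter through the Lyl1-knockout and wild-type arrays alone, so its place among the 26 lower genes was partly set by the filter. Its groups overlapped, with 5.40 the highest in NHD13 and 5.28 the lowest in wild type, and its call was lost with no filter. Ebna1bp2, Noc3l, Ftsj3, Bop1, Nip7, Wdr74 and Noc2l also fell, by 0.80 to 0.59. The dimmer probe of Ebna1bp2 was at -0.03 (adjusted p = 0.966), and the call of this gene was lost with the mean of all kept probes. Bop1 and Pes1 belong to 1 complex with Wdr12, which was not measured. Bop1 fell by 0.69 ± 0.23 (adjusted p = 0.0481), with NHD13 replicate 1 inside the wild-type range, and Pes1 did not pass (-0.37 ± 0.23, adjusted p = 0.276). Nop2, a methyltransferase of rRNA, Nle1 and Ppan did not pass either. Ppan was at 11.37, 11.43 and 11.79 in NHD13 and 11.72, 11.80 and 11.91 in wild type, with overlap (-0.27 ± 0.14, adjusted p = 0.205).

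Odc1 moved the most of all members. It was at 10.94, 10.55 and 10.76 on the NHD13 arrays, against 11.92, 12.09 and 12.25 (lowest, median, highest) on the wild-type arrays, a change of -1.33 ± 0.16 (adjusted p = 2.48e-04) or 2.52-fold.

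How many of these calls hold depends on how the arrays are scaled. When the arrays were brought to a common median in place of common quantiles, the median of all genes moved to 0.28 in NHD13 against wild type and the members' median to -0.29. Then 5 of 38 passed, all lower, namely Ncl, Npm1, Nop58, Rrs1 and Odc1, where 4.28% of all genes were lower and 19.3% higher. Rrs1 was detected on 0 NHD13 arrays, so its place among them was again partly set by the detection filter. Signs turned positive for 4 genes, all of them genes that had not passed (Rrp12, Pes1, Ppan and Nle1). Relative to the median of all genes, all 38 differences were negative under both scalings, with a median of -0.63 under quantile and -0.58 under median scaling. Without NHD13 replicate 2, which carries the myeloid signal, 13 of 38 passed (6.39% of all genes were lower), and without replicate 3, 15 (6.34%). With wild-type arrays of the same background class alone, 21 passed (11.4% of all genes were lower), of which 18 were among the 26, and the median was -0.69.

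The Lyl1-knockout NHD13 arrays against the NHD13 arrays ask whether loss of Lyl1 in fusion-carrying cells goes with other levels of these genes. Here 13 of 38 rose and 0 fell (limma, adjusted p under 0.05), where 13% of all genes rose and 9.22% fell. The median difference was 0.54, against 0.06 over all genes, and 36 of 38 differences were positive. For 23 of 38 each Lyl1-knockout array lay above each NHD13 array, as for 21.7% of all genes, and for 0 of 38 below, as for 16.6%. At an unadjusted p under 0.05, 23 were higher and 0 lower. The 2 negative differences were those of Nop56 (-0.10 ± 0.25, adjusted p = 0.805) and Noc3l (-0.17 ± 0.25, adjusted p = 0.665). This comparison and the one with wild type share the NHD13 arrays, so that low values on those arrays enter both.

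**Figure D3:**
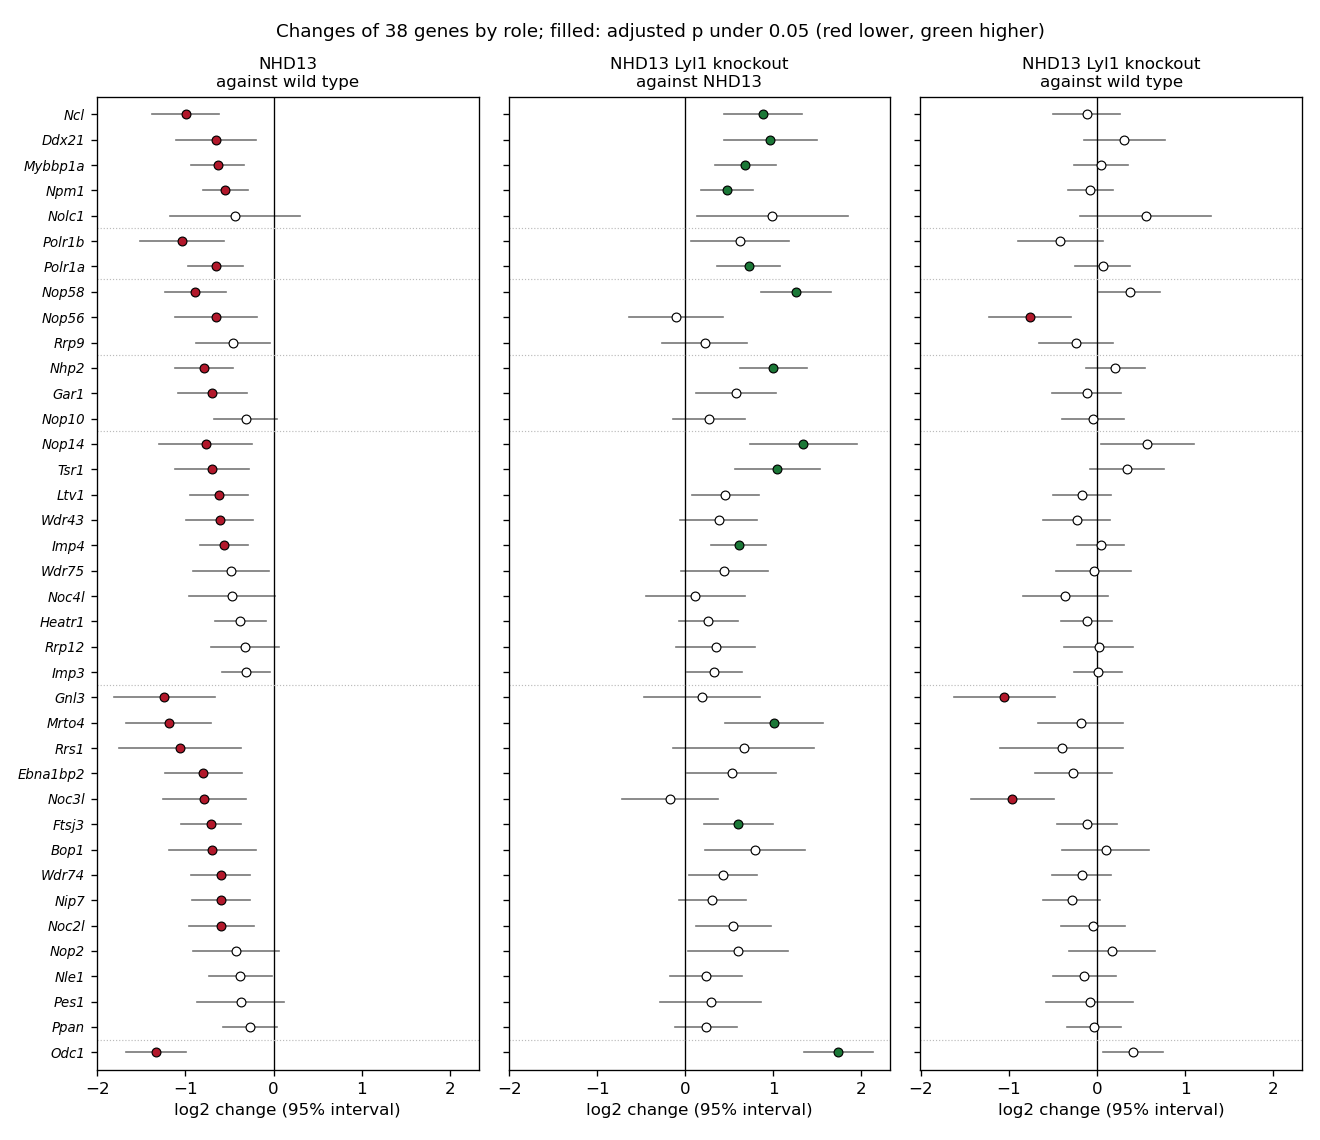
Log2 change (points) and 95% interval (lines) of the 38 genes in the 3 comparisons, ordered by role and filled where the adjusted p is under 0.05. In the panel for NHD13 against wild type all points lie left of 0, in the panel for Lyl1-knockout against NHD13 36 lie right of it, and against wild type the Lyl1-knockout points scatter about 0 except for Nop56, Gnl3 and Noc3l.

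Odc1 again had the largest change, at 12.23, 12.61 and 12.64 in Lyl1-knockout against 10.94, 10.55 and 10.76 in NHD13 (1.74 ± 0.18, adjusted p = 1.77e-04, 3.34-fold higher). Nop58 was at 12.27, 12.77 and 12.81 against 11.45, 11.36 and 11.27 (1.26 ± 0.18, adjusted p = 0.00122), and Nhp2 at 12.58, 12.59 and 12.40 against 11.80, 11.40 and 11.37 (1.00 ± 0.18, adjusted p = 0.00295). In each of these genes the groups lay far apart compared with the spread inside them. Nop14 was at 9.89, 9.62 and 9.97 in Lyl1-knockout against 8.53, 8.23 and 8.70 in NHD13 (1.34 ± 0.28, adjusted p = 0.00697). Polr1a was at 11.25, 11.21 and 11.29 against 10.74, 10.37 and 10.47 (0.72 ± 0.16, adjusted p = 0.0102), and Mrto4 at 10.65, 10.99 and 10.80 against 10.36, 9.51 and 9.55 (1.01 ± 0.26, adjusted p = 0.0167). Ddx21 was at 11.43, 11.53 and 12.01 against 10.73, 10.46 and 10.89 (0.97 ± 0.24, adjusted p = 0.0162). The other probe of Ddx21 was at -0.12 (adjusted p = 0.884), and the other probes of Polr1a at -0.25, 0.57 and 0.46, none of them past the threshold. With the mean of all kept probes, neither gene was called in this comparison.

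By role, 4 of 5 scaffold proteins rose (Ncl by 0.88, Npm1 by 0.47 and Mybbp1a by 0.68 beside Ddx21). In the other roles 1 of 2 polymerase subunits, 1 of 3 box C/D, 1 of 3 box H/ACA, 3 of 10 small-subunit and 2 of 14 large-subunit genes did. Among all genes 13% rose, so the share of the large-subunit genes was near that of all genes. The small-subunit genes were Nop14, Tsr1 (1.05) and Imp4 (0.61), the large-subunit genes Mrto4 and Ftsj3 (0.60), the counterpart of a yeast rRNA methyltransferase. The dimmer kept probes of Mybbp1a (0.13, 1.03 and 0.52) and of Imp4 (0.27) did not pass in this comparison. Rrs1 was detected on all 3 Lyl1-knockout arrays and on 0 NHD13 arrays, which is at least 1.33-fold higher, but did not pass (adjusted p = 0.226). The paired core proteins of the box C/D particle took different values here, Nop58 at 1.26 and Nop56 at -0.10.

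All Lyl1-knockout arrays belong to one background class and all NHD13 arrays to the other, so within a class the pair could not be compared. With the class as a term, which draws on the wild-type arrays of both classes, 10 of 38 passed, where 8.58% of all genes were higher. They were only 5 of the 13 genes called before (Mybbp1a, Nop58, Nhp2, Mrto4 and Odc1) and 5 others (Nolc1, Polr1b, Nop2, Wdr74 and Noc2l). The 8 genes whose calls were lost are Ncl, Npm1, Ddx21, Polr1a, Nop14, Tsr1, Imp4 and Ftsj3. Ncl was then at 0.62 ± 0.26 (adjusted p = 0.128, and 0.00214 to 0.128 over its alternatives). In a fit of these 2 groups without wild type 7 passed (5.26% of all genes were higher), 6 of them among the 13. Without NHD13 replicate 2, 8 of the 13 passed (6.88% of all genes were higher). Without Lyl1-knockout replicate 1, 15 passed (12.6% of all genes were higher), with all 13 among them, and 0 differences were negative.

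Against wild type, the Lyl1-knockout NHD13 arrays showed most of these genes near wild-type levels. Only 3 of 38 fell and 0 rose (3.81% and 4.49% of all genes). The median was -0.08, against 0.08 over all genes, and at an unadjusted p under 0.05 there were 3 lower and 3 higher. Each Lyl1-knockout array lay below each wild-type array for 4 of 38 genes (6.84% of all genes), namely Nop56, Gnl3, Noc3l and Nip7, and above for 0 of 38 (9.20%). For 32 of 38 the 95% interval of the difference held 0, with full widths of 0.51 to 1.48 from bound to bound. Differences up to the bounds of each interval remain possible for these genes. This comparison shares its wild-type arrays with the first and its Lyl1-knockout arrays with the second. These intervals reached from -0.50 to 0.27 for Ncl, from -0.33 to 0.18 for Npm1 and from -0.24 to 0.37 for Polr1a. The interval of Odc1 was 0.07 to 0.75 (0.41 ± 0.16, adjusted p = 0.124), with Lyl1-knockout values of 12.23, 12.61 and 12.64 and a wild-type maximum of 12.25. The other 2 with an interval above 0 were Nop58 (0.37 ± 0.16) and Nop14 (0.57 ± 0.24), neither past the threshold.

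The 3 genes that stayed low were Gnl3, Noc3l, a large-subunit factor whose yeast counterpart travels with early pre-ribosomes, and Nop56. Gnl3 was at 7.18, 8.63 and 8.13 in Lyl1-knockout against 8.72, 9.05 and 9.35 (lowest, median, highest) in wild type (-1.05 ± 0.26, adjusted p = 0.0281). Noc3l was at 7.37, 8.07 and 8.46 against 8.55, 9.0 and 9.07 (-0.96 ± 0.22, adjusted p = 0.0191). Nop56 was at 10.24, 11.04 and 10.76 against 11.33, 11.43 and 11.62 (-0.76 ± 0.21, adjusted p = 0.0447). In all of them replicate 1 was the lowest array, and replicates 2 and 3 also lay below the wild-type range. Without replicate 1 the changes were -0.65 for Gnl3, -0.66 for Noc3l and -0.54 for Nop56, with adjusted p-values of 0.0881, 0.0641 and 0.186. Over their alternatives these p-values ran from 0.00979 to 0.104, from 0.0107 to 0.0771 and from 0.0259 to 0.343. With median scaling 5 of 38 genes were higher than wild type (Ddx21, Nop58, Nhp2, Nop14 and Odc1), near the 13.3% of all genes that were higher. Noc3l alone was lower, beside 2.31% of all genes. The sign of 19 of 38 differences then turned, while the median of all genes was 0.33 and that of the members 0.34.

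Single arrays showed the same picture. The median member lay 0.21 below, 0.03 below and 0.06 above its wild-type mean on Lyl1-knockout replicates 1, 2 and 3, and at -0.51, -0.73 and -0.69 on the NHD13 replicates, while wild-type arrays lay between -0.07 and 0.05. On the NHD13 arrays 30, 35 and 36 of the 38 genes were below the lowest wild-type array and 0 above the highest. On the Lyl1-knockout arrays 16, 10 and 6 were below and 1, 3 and 7 above. The share of all genes outside the wild-type range was not computed for single arrays, so these counts have no baseline beside them. The median SD of the members between replicates was 0.18 in Lyl1-knockout, 0.21 in NHD13 and 0.20 in wild type, against 0.28, 0.27 and 0.28 over all genes in the same groups.

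**Figure D4:**
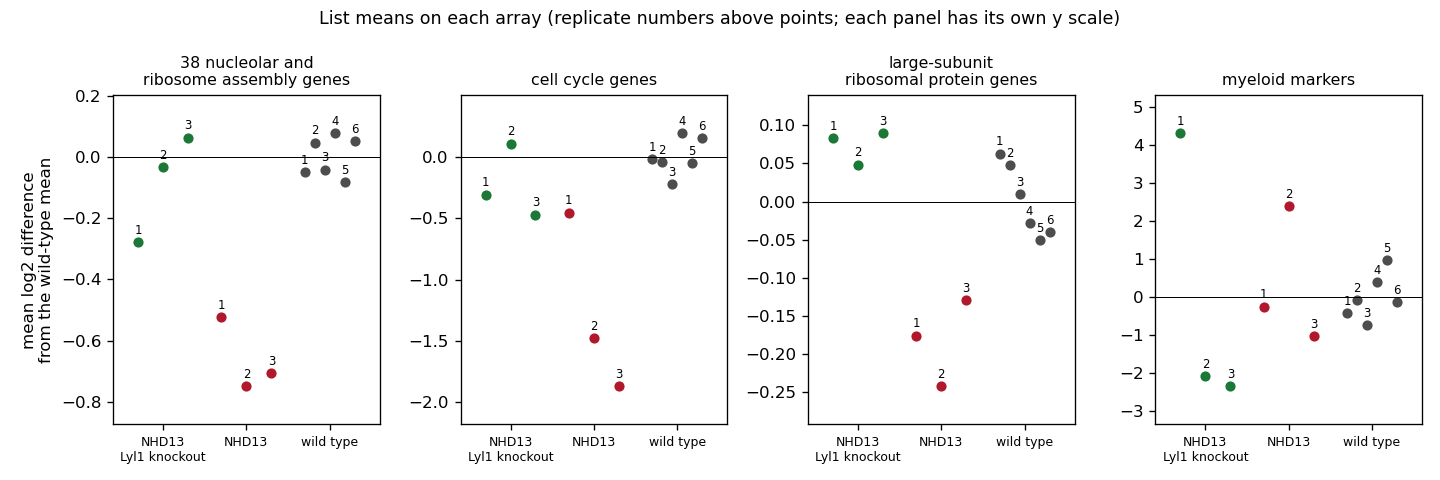
Mean log2 difference from the wild-type mean on each array (points, replicate number above) for the 38 genes, cell cycle genes, large-subunit ribosomal protein genes and myeloid markers. The NHD13 arrays are lowest in the first 3 panels apart from Lyl1-knockout replicate 3 in the cell cycle panel, and the myeloid panel shows Lyl1-knockout replicate 1 and NHD13 replicate 2 highest.

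Genes of the cell cycle changed in the same direction as most members between groups, but not on every array. Of 17 measured, 16 fell in NHD13 against wild type (12.6% of all genes did), among them the replication genes Tyms (-1.72), Cdc6 (-1.68), Mcm4 (-0.83) and Pcna (-1.32). In Lyl1-knockout against NHD13, 6 rose (13% of all genes did). The mean of the 17 genes was -0.31, 0.11 and -0.47 relative to wild type on the Lyl1-knockout arrays and -0.45, -1.48 and -1.87 on the NHD13 arrays. On Lyl1-knockout replicate 3 this mean was thus slightly below that of NHD13 replicate 1. The mean of the members was 0.06 and -0.52 on these 2 arrays. Markers of the T lineage averaged -2.88, -0.06 and 0.23 on the Lyl1-knockout arrays and -1.19, -1.12 and -1.53 on the NHD13 arrays. Of these 9 markers 2 fell in NHD13 against wild type, Rag1 (-4.94) and Ptcra (-3.39), which act at the pre-T-cell receptor stage. The other 7 did not pass: Cd3d was at -2.0, Ptprc at -0.64, Cd2 at -0.50, Cd3g at -0.27, Thy1 at -0.19, Cd3e at 0.05 and Il2ra at 0.35, and the median of the list was -0.50. The summed signal of the 13 measured myeloid markers ranged from 551 to 87951 in Lyl1-knockout, 2693 to 47978 in NHD13 and 5605 to 18004 in wild type, with 2 to 13, 6 to 13 and 8 to 11 of them detected. Of 7 erythroid markers 2 were measured, and Hba-a1 was higher in NHD13 by 5.24. Of 4 markers of CD4+CD8+ thymocytes 2 were measured. Cd8b1 rose in NHD13 (1.09 ± 0.28, adjusted p = 0.0158), at 12.95, 13.53 and 12.65 in NHD13 against 11.31 to 12.39 in wild type, although the cells were sorted as CD8-, and Cd4 was at -0.11 (adjusted p = 0.800). The part of cell division, stage or other cells in the members' levels was not tested.

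Assembly factors outside the 44 are given beside the shares of all genes, 12.6% lower and 11.6% higher in NHD13 against wild type. In NHD13 against wild type 7 of 34 other small-subunit factors fell and 0 rose, led by Nol10 (-0.78 ± 0.16), Emg1 (-0.67 ± 0.14), Aatf (-0.55 ± 0.13) and Rcl1 (-0.62 ± 0.14). Of 36 other large-subunit factors 9 fell and 1 rose, led by Rpf2 (-1.5 ± 0.20, adjusted p = 5.07e-04), the partner of Rrs1 in yeast, and Rrp15 (-0.67 ± 0.14). The rRNA-trimming exosome had 7 of 13 lower, among them Exosc8 (-1.24 ± 0.19) and Exosc2 (-0.77 ± 0.16), and the assembly factors of snoRNPs 4 of 8, among them Znhit3 (-0.81 ± 0.19) and Shq1 (-0.82 ± 0.23), the chaperone of the H/ACA enzyme. Of 15 other RNA polymerase I subunits and factors 1 fell, Polr2h (-0.54 ± 0.15), which RNA polymerases share, a smaller share than among all genes. In Lyl1-knockout against NHD13 the counts of higher and lower were 8 and 0 for the small subunit, 9 and 1 for the large subunit, 4 and 0 for the exosome, 2 and 0 for snoRNP assembly and 5 and 0 for RNA polymerase I, where 13% of all genes were higher and 9.22% lower. Against wild type, the Lyl1-knockout arrays had 3 calls in these lists, all lower: Nmd3 (-1.46), the export adaptor of the large subunit, Rsl24d1 (-0.64) and Aatf (-0.51). That is a smaller share than the 3.81% of all genes called lower there.

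The structural proteins of the ribosome had medians near 0 in NHD13 against wild type, and their counts stand beside 12.6% of all genes lower there and 13% higher in Lyl1-knockout against NHD13. Of 31 large-subunit ribosomal protein genes 4 fell in NHD13 against wild type, Rplp0 (-1.31 ± 0.23), Rpl4 (-0.67 ± 0.18), Rpl30 (-0.56 ± 0.15) and Rpl13a (-0.60 ± 0.17), with a median of -0.10. Of 21 small-subunit genes 1 fell, Rps3a1 (-0.43 ± 0.14), with a median of -0.07. In Lyl1-knockout against NHD13, 6 of the 31 rose, a larger share than among all genes, and 1 of the 21, a smaller one. Against wild type 1 rose in Lyl1-knockout, Rpl14 (1.03 ± 0.16, adjusted p = 0.00336). The mean of the large-subunit genes was 0.08, 0.05 and 0.09 on the Lyl1-knockout arrays, -0.18, -0.24 and -0.13 on the NHD13 arrays, 0.01 to 0.06 on wild-type replicates 1 to 3 and -0.05 to -0.03 on wild-type replicates 4 to 6. The background class thus moved with this mean within wild type, and its part in the ribosomal protein values was not tested. Ribosomal protein genes have many processed copies in the genome, so their probes may share signal.

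**Figure D5:**
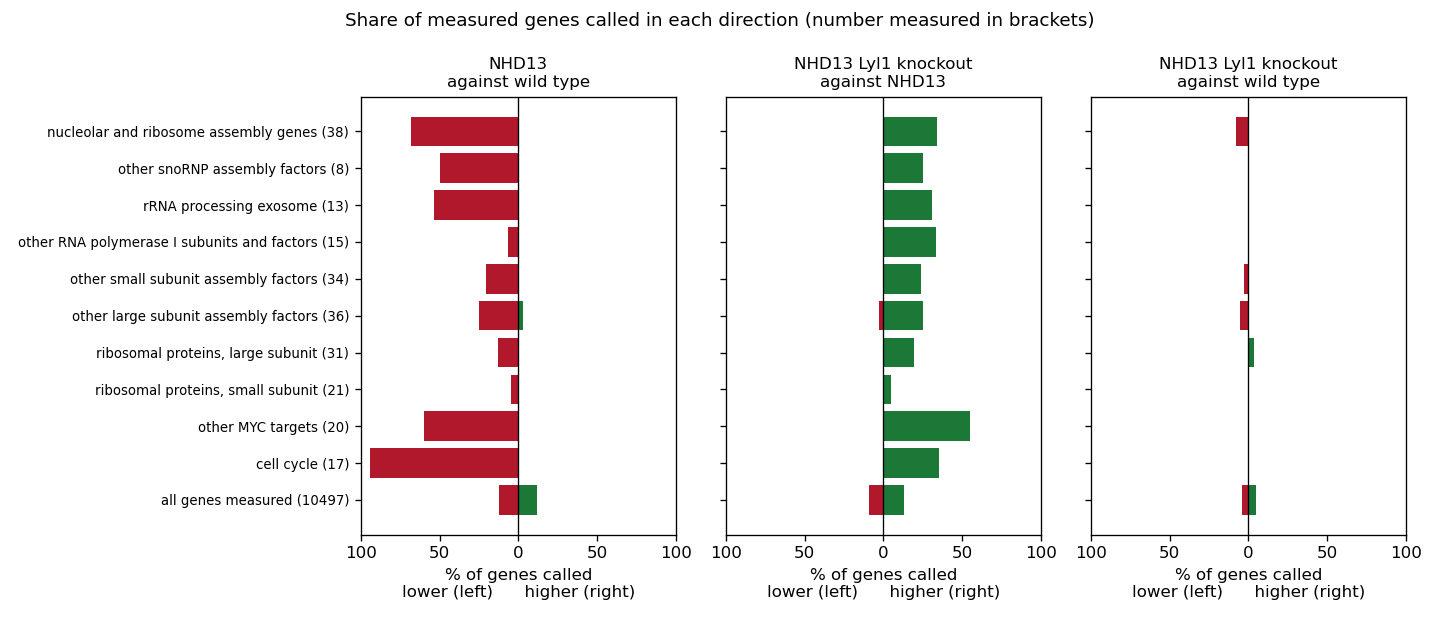
Percent of measured genes called lower (left bars) and higher (right bars) in the 3 comparisons, by gene list, with the number measured in brackets and all genes in the last row. In NHD13 against wild type the 38 genes (26 lower) and the cell cycle (16 of 17 lower) have the longest left bars, and the bars of ribosomal proteins (4 of 31 and 1 of 21) are about as long as that of all genes or shorter.

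Myc itself fell in NHD13. It was at 7.80, 8.29 and 8.20 in Lyl1-knockout, at 7.09, 7.44 and 6.04 in NHD13, and at 8.55, 8.98 and 9.39 (lowest, median, highest) in wild type. The change in NHD13 against wild type was -2.15 ± 0.30 (adjusted p = 7.59e-04), or 4.43-fold. Lyl1-knockout arrays lay between NHD13 and wild type with no overlap (1.24 ± 0.35 against NHD13, adjusted p = 0.0248, and -0.90 ± 0.30 against wild type, adjusted p = 0.0782). Max, its DNA-binding partner, did not pass in NHD13 against wild type (0.66 ± 0.51, adjusted p = 0.399), and Mycn was not measured. Of the antagonists, Mxi1 fell (-1.27 ± 0.21) and Mxd1 rose (1.19 ± 0.25) in NHD13. Among 20 other known MYC targets 12 fell and 0 rose, where 12.6% of all genes fell and 11.6% rose. They were led by the chaperonin pair Hspd1 (-1.32 ± 0.15) and Hspe1 (-1.23 ± 0.19), the purine enzyme Ppat (-1.31 ± 0.21) and Ran (-0.90 ± 0.18). In Lyl1-knockout against NHD13, 11 of the 20 rose, where 13% of all genes did. Beside Odc1, the next step of polyamine synthesis, Srm, fell by 1.01 ± 0.23 (adjusted p = 0.00963), while Smox, an oxidase that breaks spermine down, rose by 1.59 ± 0.23 (adjusted p = 9.72e-04). In Lyl1-knockout against NHD13, Srm rose by 0.90 ± 0.26 (adjusted p = 0.0319) and Smox fell by 1.24 ± 0.27 (adjusted p = 0.00839). Of 5 measured genes from a list on p53 and its link to ribosomal proteins, among them Mdm2, Cdkn1a and Cdkn2a, 0 passed in any of the 3 comparisons. Cdkn1a was at -1.77 ± 0.61 in NHD13 against wild type (adjusted p = 0.0566).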

How the data were processed

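Bead-summarised probe intensity and its detection p-value were deposited for 12 arrays, per the file headers; BeadStudio and limma are named, without versions, per the submitters' processing notes. Whether background was subtracted beforehand is not stated in these sources. The authors' deposited log2 table served as an alternative, since it correlated at 0.9998 with the normalization made here.

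Normalization used limma 3.58.1 under R 4.3.3, by its neqc function (background from detection p-values, offset 16, quantile normalization, log2). Probes with detection p under 0.05 on at least 3 arrays were kept (20416). A gene took its kept probe with the highest mean. A mean per group was fitted over all arrays (lmFit, eBayes), 3 contrasts were tested, and p-values were adjusted by Benjamini and Hochberg over all kept probes. Intervals are 95%. Precision is limited by the number of arrays. The procedure was tested on simulated data.

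Gene symbols came from the platform annotation, and 18 probes with several symbols were left out. Of 16 members with more than 1 kept probe, 9, 5 and 0 had a probe with another call in the 3 comparisons (NHD13 against wild type, Lyl1-knockout against NHD13, Lyl1-knockout against wild type), 0 an opposite one. The members and lists were chosen with earlier results of these data known. Array values are given for Ncl, Npm1, Odc1, the largest and smallest changes of each role group of 4 or more members, and the largest calls of a role; of other lists, Myc, Max and up to 4 genes with the smallest p-values in NHD13 against wild type. Array values of further members, such as Nop56, Noc3l and Nop10, and names in short counts were chosen after their values were seen.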

Additional observations from a re-analysis of the deposited data

Results flagged for a closer look

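Noc3l on wild-type replicate 5 was at 8.55, below the other wild-type arrays (8.88 to 9.07), and its gap passed Dixon's 95% critical value for 6 samples (gap over range 0.641). It was 1 of 38 genes checked in wild type, where chance alone would pass about 1 in 20. All Lyl1-knockout and NHD13 arrays lay below this value for Noc3l.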

How the results depend on the processing

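No called gene changed direction under the alternatives run. In NHD13 against wild type, 26 calls became 5 with median scaling (4.28% of all genes lower), 11 with the replicate block (8.18%) and 13 to 26 when 1 array was left out (6.34% to 14.5%). In Lyl1-knockout against NHD13, 13 became 7 (6 of them among the 13) with the 2 groups alone, where 5.26% of all genes were higher. They became 8 to 15 with 1 array left out (6.88% to 14% of all genes higher). In Lyl1-knockout against wild type, 3 became 6 with median scaling (1 lower, 5 higher, 1 of them among the 3), where 2.31% of all genes were lower and 13.3% higher. The 3 became 0 to 3 with 1 array left out, where 2.28% to 4.16% of all genes were lower. They became 0 without Lyl1-knockout replicate 1, and 1 without its replicate 3 or wild-type replicate 3. With wild-type replicates of the same background class alone they became 0 (2.52% of all genes lower). At an unadjusted p under 0.05 the same-class setting had 4 lower and 3 higher, and the one without Lyl1-knockout replicate 1 had 3 lower and 2 higher. Causes were not tested; each such setting but median scaling and the block also holds fewer arrays.

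Probes called in NHD13 against wild type split into 2296 lower and 1999 higher, and into 838 and 3456 with median scaling; in Lyl1-knockout against wild type the split was 1122 and 831, and 778 and 2218. Replicate numbers share no stated source: deviations of same-numbered arrays correlated at -0.149 to 0.167, so the block, with 11, 11 and 2 calls in the 3 comparisons, is no paired design. The planned class by median background could not be formed, since the medians did not separate the arrays; the classes by probe pattern were chosen after seeing the data. Signal near background limits Rrs1 and Nolc1.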
